A study of Mus musculus with 2 samples.

Results

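Erythroid cells of the embryonic mouse brain were followed in 2 single-cell RNA-seq libraries. They were chosen by a rule on measured values: a barcode with 1500 to 60000 unique molecular identifiers (UMIs, 1 per captured transcript), under 10% of its UMIs from the mitochondrial genome, at least 1 UMI of Alas2, and at least 20% of its UMIs from the adult globin genes Hba-a1, Hba-a2, Hbb-bs and Hbb-bt summed. The rule found 432 cells of the 16348 barcodes that passed the UMI and mitochondrial limits, and the libraries held 27182 barcodes in all. The 4 globins and Alas2 therefore describe how the cells were picked and carry no test below.

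Both libraries came from wild-type (WT) embryos of a line in which Emx1-Cre, active in dorsal telencephalic progenitors, deletes Dot1l. The embryos were taken at embryonic day 16.5, and no mutant sample was analysed here, so no genotype was compared. The dorsal telencephalon was dissected and dissociated with papain, although the tissue label reads brain hemispheres. The cells were loaded without a sort, and no step to lyse red cells is named, so blood inside the vessels of the tissue could enter the suspension. The animal numbers in the labels end in 1 and 6, and the libraries are called WT replicate 1 and WT replicate 6 here. The labels do not say how many embryos went into each library, so every p-value below measures only the spread between these 2 libraries.

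Red cell precursors devote most of their transcription to globin chains and to the pathway that makes heme, in which ALAS2 is the erythroid enzyme of the first step. As they mature they stop dividing, condense and expel the nucleus, and then clear ribosomes and mitochondria, so that a reticulocyte carries a shrinking pool of stable transcripts. In the mouse fetus the first red cells come from the yolk sac and use embryonic globins, and later ones come from the fetal liver and use the adult globins.

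The proximal promoters of the genes that picked the cells, and of the embryonic gene Hbb-y for contrast, are shown because the adult and embryonic genes of the beta cluster were measured side by side. Each line gives the 120 bases before the RefSeq start on GRCm38.p6, the patch release of mm10, with 3 short motifs in capitals on either strand: GATAA, the core of a GATA factor site, CACCC, the core of a KLF1 site, and CCAAT. A capital run on the reverse strand shows the reverse complement.
Hbb-bs, chr7:103827929-103828048, minus strand: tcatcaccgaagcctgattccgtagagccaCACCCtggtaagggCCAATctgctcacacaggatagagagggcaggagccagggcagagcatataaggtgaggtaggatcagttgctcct
Hbb-bt, chr7:103813924-103814043, minus strand: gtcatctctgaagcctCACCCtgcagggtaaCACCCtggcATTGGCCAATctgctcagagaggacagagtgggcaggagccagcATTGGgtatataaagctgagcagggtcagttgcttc
Hba-a1, chr11:32283552-32283671, plus strand: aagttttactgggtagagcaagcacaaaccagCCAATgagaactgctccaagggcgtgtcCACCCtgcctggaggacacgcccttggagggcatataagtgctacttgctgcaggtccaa
Hbb-y, chr7:103853208-103853327, minus strand: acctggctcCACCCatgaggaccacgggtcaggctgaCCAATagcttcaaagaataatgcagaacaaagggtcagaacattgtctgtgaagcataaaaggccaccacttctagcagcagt
Alas2, chrX:150547297-150547416, plus strand: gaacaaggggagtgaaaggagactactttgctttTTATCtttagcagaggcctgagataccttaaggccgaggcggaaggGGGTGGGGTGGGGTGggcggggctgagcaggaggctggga
CACCC and CCAAT were present in all 4 globin windows printed, and GATAA was in the Alas2 window alone of the 5, beside CACCC. The window of the embryonic gene Hba-x, which is not printed, differed: it held 1 GATAA and 1 CACCC match and 0 CCAAT matches. Among 32851 promoters cut to the same length, 10.5% held GATAA, 31.7% held CACCC and 21.3% held CCAAT. The windows of Hba-a1 and Hba-a2 were identical over 117 aligned bases. The transcripts of these alpha genes were identical at 646 of 647 aligned bases, so the split of UMIs between Hba-a1 and Hba-a2 is uncertain, whereas Hbb-bs and Hbb-bt transcripts were identical at 611 of 660. A motif match is a description of these letters and not a binding site.

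The erythroid cells made up a small but similar part of both libraries. WT replicate 1 held 192 among 8139 passing barcodes, 2.36% (95% Wilson interval 2.05 to 2.71%), and WT replicate 6 held 240 among 8209, 2.92% (2.58 to 3.31%), for a mean of 2.64% ± 0.399 (SD, n = 2). The intervals cover counting error only. Total depth was 74930397 and 68964234 UMIs, of which 59 barcode sequences occurred in both libraries and none of those was erythroid in both. A doublet score marked 920 of the 8139 and 857 of the 8209 passing barcodes, numbers set in advance by an assumed doublet rate. Among them were 6 and 14 erythroid barcodes, and these were kept.

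Few members lay near the globin limit, with 4 and 14 under 30% globin, and more lay at the Alas2 limit. In WT replicate 1 the 3 lowest members had 21.1, 22.1 and 26.1% globin, and the 3 Alas2-positive cells just below the limit had 16.4, 18.8 and 19.7%. In WT replicate 6 the members began at 20.2, 20.6 and 21.7%, and the cells just outside had 15.5, 16 and 18.8%. A single Alas2 UMI admitted 35 members (18.2%) and 39 members (16.2%), and another 44 and 45 barcodes met the globin limit without any Alas2 UMI. Those Alas2-negative barcodes were shallow, with medians of 1948.5 and 2237 UMIs and of 64.7 and 71.7% globin. The median share of Hbb-bt in a barcode's beta-globin UMIs was 11.9 and 10.5% there against 23.5 and 24.7% in the members.

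Members were globin-rich, as the rule required, and held few other UMIs. The median cell had 3693.5 and 4139 UMIs, 400 and 360 detected genes, and a globin share of 77.3% (range 21.1 to 90.4%) and 83.1% (20.2 to 93.6%). Globin took at least 70% of the UMIs in 138 (71.9%) and 195 (81.2%) of them. The other passing cells had medians of 2867 and 2809 genes from 7014 and 6738 UMIs. With the rule genes taken out and each cell thinned to 300 UMIs, which left out 2 erythroid cells of WT replicate 6, erythroid cells had a median of 193 and 190 genes, against 244 and 239 in a microglia class, which was set by marker genes, and 256 and 255 in an excitatory neuron class.

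**Figure D1:**
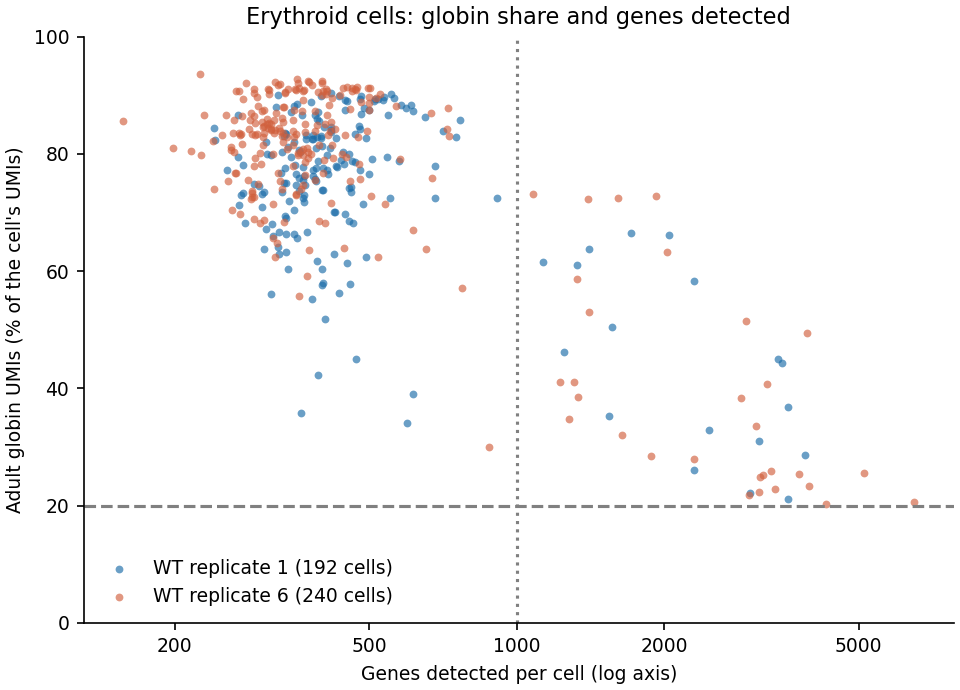
Each point is 1 erythroid cell, 192 from WT replicate 1 and 240 from WT replicate 6, with detected genes on a log axis and adult globin as % of the cell's UMIs. The dashed line is the 20% limit of the rule and the dotted line marks 1000 genes: 18 and 30 cells lie to its right, with at most 66.5 and 73.2% globin.

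A minority of the members stood apart. Cells with 1000 or more genes numbered 18 in WT replicate 1 and 30 in WT replicate 6, with median globin shares of 44.7 and 34.2%, yet they supplied 42.4 and 59.1% of the UMIs left after the 5 rule genes were taken out. The richest members had 3886 and 6489 genes. Whether they were doublets, or erythroid cells beside the RNA of another cell, was not tested. Some comparisons below are therefore also given without them, an alternative chosen after the data were seen. Counts and differences for single gene lists cover all members unless stated otherwise.

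Hbb-bs, the major adult beta chain, was the most abundant transcript in the erythroid cells. Of the adult globin UMIs in erythroid cells, Hbb-bs took 48.0% ± 1.58, Hba-a1 20.5% ± 1.40, Hbb-bt, the other adult beta chain, 16% ± 0.570 and Hba-a2 15.6% ± 0.746 (mean ± SD, n = 2). Alpha UMIs per beta UMI came to 0.602 and 0.527. Erythroid cells held 77.8 and 81.5% of all adult globin UMIs of the passing barcodes while holding 1.46 and 2.25% of all UMIs.

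The remaining globin UMIs lay in part in a few globin-rich barcodes and in part throughout the other cells. The 44 and 45 passing barcodes with at least 20% globin and no Alas2 UMI held 30.1 and 33.6% of the globin UMIs outside the erythroid cells, and the 7886 and 7901 barcodes under 5% globin held 54.8 and 57.7%. At least 1 globin UMI was found in 99.9% of the other cells of either library, at 0.314 and 0.386% of their UMIs. Hbb-bs UMIs per Hbb-bt UMI came to 4.21 and 3.99 over all other cells, against 3.01 and 2.99 in erythroid cells. The ratio was 6.66 and 5.47 in the globin-rich barcodes without Alas2 and 3.55 and 3.37 in the barcodes under 5% globin. Among the marker-set classes it ran from 3.17 and 3 in the endothelial class through 3.40 and 3.49 in the microglia class to 3.61 and 3.46 in the excitatory neuron class. Alas2 was seen in 8.34 and 7.52% of other cells, in 9.98 and 8.98% of the excitatory neuron class (median depth 9098 and 8252.5 UMIs) and in 1.20 and 3.41% of the microglia class (7801 and 6713.5 UMIs).

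**Figure D2:**
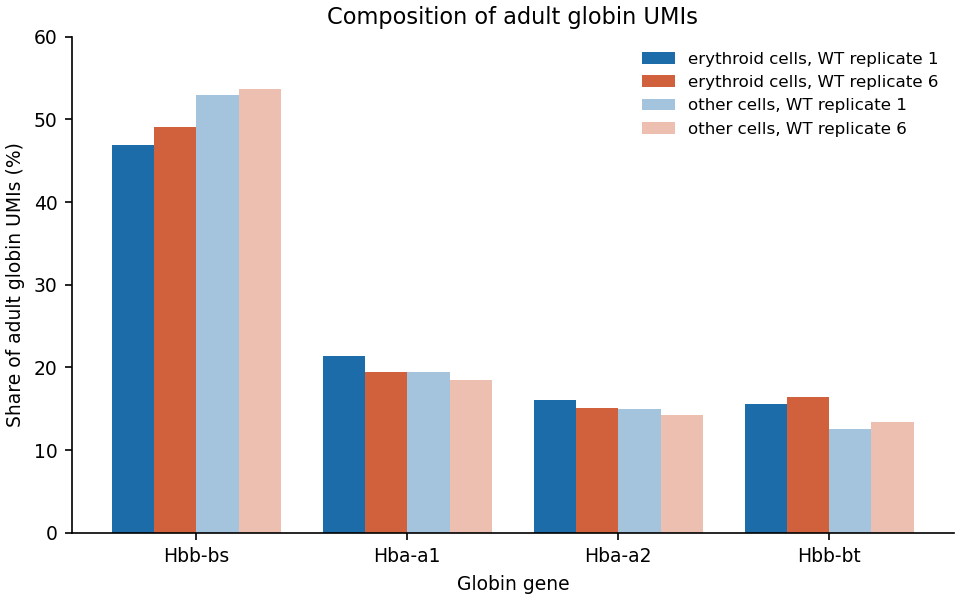
Bars give each adult globin gene's share of adult globin UMIs (%) in the erythroid and the other cells of each library. Hbb-bs is the tallest in every group, and Hbb-bt is higher in the erythroid cells of both libraries.

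Embryonic globins were almost absent. Hbb-y, the embryonic epsilon-type beta chain, had 1 and 3 UMIs in 192 and 240 erythroid cells, and Hba-x, the embryonic zeta chain, had 1 and 0. Hbb-bh1 had 4 and 10 UMIs, but these came from 1 and 2 cells. Hbb-bh2 had none in either library. The minor alpha-like genes Hbq1a (8 and 23 UMIs) and Hbq1b (25 and 14) were also rare, and their other-cell counts of 6 and 6 and of 10 and 5 were small against far larger libraries. Hbb-y had 12 and 11 UMIs in the other cells, and Hbb-bh1 had 3 and 2. None of these 6 genes was part of the rule. In the comparison with other cells described next, 4 of the 6 were tested. All 4 were called higher on these few counts, with a median log2 difference of 9.29, where 1.46% of all genes tested were higher.

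To see what else the cells expressed, UMIs were summed per library over erythroid cells and over all other passing cells. The 5 rule genes were removed, which left 247651 and 367978 erythroid UMIs against 64039874 and 60760242, and tested with edgeR (quasi-likelihood, Benjamini-Hochberg adjusted p, n = 2 libraries a class). Of 17794 genes tested, 260 were higher in erythroid cells (1.46%) and 83 were lower (0.466%), 1.93% in all, and the median log2 difference over all genes tested was -0.25. That median was 0.10 when the 3308 genes with no erythroid UMI were set at the value that 3 UMIs per library would give. With the library as a block, 570 genes were called, 346 higher and 224 lower. Without TMM scaling, which shifted the median gene by -0.31, 24.3% of the calls were higher in place of 75.8%, while 239 of the 260 higher calls were kept.

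Enzymes of heme synthesis beyond ALAS2 were higher in erythroid cells. Of 8 heme synthesis genes tested besides Alas2, 5 rose, none fell and 3 did not pass, with a median log2 difference of 1.85. Fech, which inserts iron into protoporphyrin to make heme, had 224 and 265 UMIs in erythroid cells and 896 and 912 in all other cells, or 812 ± 130 against 14.5 ± 0.720 CPM (UMIs per 1000000 remaining UMIs, mean ± SD, n = 2). Its log2 difference was 6.12 ± 0.21 (SE, adjusted p = 8.87e-07). Urod (3.64), Cpox (2.81) and Alad (1.37), middle steps of the pathway, rose too, each with under 60 erythroid UMIs a library.

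Genes for mitochondrial iron import and iron storage rose, and the uptake receptor did not pass. Of 22 iron and heme handling genes, 7 rose and 15 did not pass (median 0.22, or 0.40 with Hmox1, which had no erythroid UMI, at its bound). Slc25a37, mitoferrin 1, which carries iron into mitochondria, had 431 and 553 UMIs against 232 and 262 in all other cells together. The 192 and 240 erythroid cells thus held more of its UMIs than the 7947 and 7969 others, a log2 difference of 8.99 ± 0.26 (adjusted p = 3.09e-07). Blvrb, a biliverdin reductase, differed by 6.33, Ncoa4, the cargo receptor for ferritin turnover, by 4.31, Glrx5 of iron-sulfur assembly by 3.07, and the ferritin chains Fth1 and Ftl1 by 2.98 and 2.74. Tfrc, the transferrin receptor that marks younger precursors, had 3 and 12 UMIs and a log2 difference of 0.25 (adjusted p = 0.765).

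Of the erythroid membrane and skeleton genes, 13 of 26 tested rose and none fell, with a median of 3.35. The rule did not use these genes, and they check the erythroid label. Slc4a1, the anion exchanger band 3, had 75 and 125 erythroid UMIs against 14 and 26 in the other cells, a log2 difference of 10.27 ± 0.24 (adjusted p = 2.21e-07). The translocator protein gene Tspo2 (7.67), the Rh protein Rhd (6.62), the blood group protein Kel (8.37) and the skeleton link protein Epb41 (3.47) rose too. Epb42, which ties band 3 to the skeleton, had 4 and 10 UMIs against 2 and 4. Cd47, a surface protein of many cell types, did not pass, at 0.43 (adjusted p = 0.456).

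Transcription factors that set the erythroid program were scarcely detected. Of 21 tested, 4 rose and 17 did not pass, with a median of 0.18 (0.28 with Gata2 at its bound). Among the cells under 1000 genes, 5 of 20 tested rose and 3 fell (median 0.27). In that setting 3.89% of all genes tested were higher and 6.66% lower. Lmo2, a bridging factor of the GATA1 complex, had 15 and 33 UMIs and E2f2, a cell-cycle factor, 14 and 31, with log2 differences of 2.97 and 3.67. Klf1 had 1 and 3 UMIs and Nfe2 5 and 3, and each was called on these few counts (adjusted p = 0.0472 and 0.00385). Gata1, with 1 UMI in either library, was too low to test.

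Of 9 globin chaperones and erythroid cofactors, 5 rose (median 4.49). Hebp1, a heme-binding protein, had 12 and 30 erythroid UMIs against 217 and 198 and a log2 difference of 4.65 ± 0.35 (adjusted p = 0.000116). In glycolysis, 1 of 14 genes rose, with a list median of -0.05. That gene was Bpgm, the enzyme that makes 2,3-bisphosphoglycerate, with 536 and 629 UMIs against 1834 and 1703 (6.41 ± 0.24, adjusted p = 1.16e-06).

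Peroxide and carbon dioxide handling rose in part. Of 14 redox and carbonic anhydrase genes, 7 rose and 7 did not pass (median 0.90, or 1.04 with Car3 at its bound). Gpx1, a glutathione peroxidase, was at 5059 ± 5.16 CPM in erythroid cells and 80.8 ± 6.72 in the others (SD, n = 2), a log2 difference of 6.28 ± 0.23 (adjusted p = 1.12e-06). Car2, a carbonic anhydrase, had 256 and 324 UMIs against 596 and 559 (7.0). Catalase, Cat, followed at 3.44, Gclm of glutathione synthesis at 3.02 and the peroxiredoxin Prdx2 at 2.05. Sod1 (0.78), Txn1 (0.24) and Prdx1 (-0.11) did not pass.

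Genes for organelle clearance and ubiquitin conjugation moved in part: 15 of 27 rose and 12 did not pass, with a median of 1.38. Ube2l6, a ubiquitin-conjugating enzyme also used for ISG15, had 203 and 247 UMIs against 157 and 150 (8.55 ± 0.23, adjusted p = 3.09e-07). Mkrn1, a RING ubiquitin ligase, had 862 and 1191 against 6251 and 6429 (5.36). Bnip3l, the receptor that clears mitochondria from reticulocytes, differed by 3.68, and Ube2o, which remodels the reticulocyte proteome, by 3.42.

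A list of late maturation genes had 14 of 26 higher, none lower and a median of 1.84. Tent5c, a poly(A) polymerase, had 255 and 297 UMIs against 69 and 82 (9.87 ± 0.28, adjusted p = 3.09e-07). Isg20, an exonuclease, had 74 and 121 against 32 and 43 (9.34). Trim10, a TRIM protein needed in terminal differentiation, belonged to the organelle clearance list instead. It had 25 and 64 UMIs against 8 and 17 (9.74). The ligase gene March2 differed by 4.42.

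Outside every list, the 10 genes with the largest rise among those with at least 50 UMIs in each erythroid sum were taken, and 9 of them are given here. Cdr2 had 71 and 96 UMIs against 455 and 407 (5.61 ± 0.16, adjusted p = 3.09e-07). Slc25a39, a mitochondrial carrier, rose by 5.20, the phosphatase Cdc25b by 4.81, the mitochondrial thioredoxin reductase Txnrd2 by 4.28, Adipor1 by 4.07, the mitochondrial cluster protein Bola3 by 3.52 and Pabpc1, the cytoplasmic poly(A)-binding protein, by 3.48. Creg1 (4.19) and Ccndbp1 (3.55) were the other two.

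**Figure D3:**
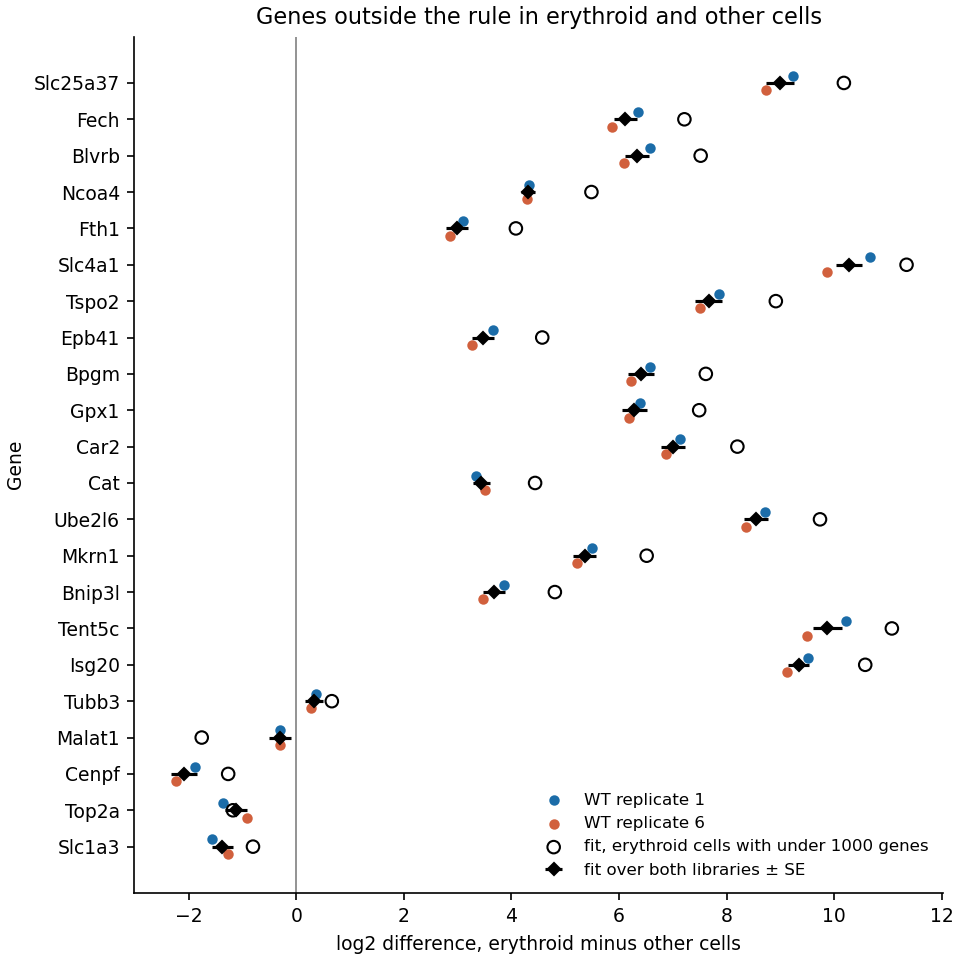
Horizontal axis: log2 difference, erythroid minus other cells. Coloured dots give the 2 libraries, diamonds with bars the fit ± SE, and open circles the fit with erythroid cells under 1000 genes; Slc4a1 and Tent5c lie farthest to the right and Cenpf farthest to the left.

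Shares of single cells showed the same genes at equal depth. When each cell was thinned to 300 UMIs outside the rule genes, Slc4a1 was seen in 7.29 and 10.5% of erythroid cells and in none of 83 and 88 cells of the microglia class, which at that depth allows up to 3.61 and 3.41% of cells with a UMI, by counting error alone. Bpgm was seen in 39.1 and 45.4% of erythroid cells and in 0 and 1.14% of the same microglia-class cells. Mkrn1 was seen in 60.9 and 63.4% against 2.41 and 2.27%, and Gpx1 in 40.6 and 54.2% against 12 and 17%. Unthinned, Slc4a1 had a UMI in 19.8 and 21.2% of erythroid cells, Bpgm in 64.6 and 69.6%, Mkrn1 in 83.9 and 85.4%, and Gpx1 in 52.6 and 67.1%.

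In the lists, the genes that fell belonged to dividing cells, progenitors, vessels and fibroblasts. Among 20 proliferation genes, Cenpf (7 and 8 UMIs against 8470 and 7575, a log2 difference of -2.09, adjusted p = 0.00154) and Top2a (14 and 25 against 11697 and 9461, -1.11, adjusted p = 0.0301) fell. Ube2c, a conjugating enzyme of mitotic exit, rose, with 137 and 267 UMIs against 6866 and 6530 (2.89), and Mki67, with 19 and 29, did not pass (0.03). Slc1a3, the glutamate transporter of radial glia, had 9 and 18 UMIs against 8733 and 8733 (-1.37, adjusted p = 0.00883). Eomes, of intermediate progenitors, had 2 and 5 against 3966 and 3733 and was the other of 15 progenitor genes to fall.

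Markers of vessel cells were near 0. Of 12 endothelial genes 2 fell (Cldn5 with 6 and 5 UMIs and Ramp2 with 1 and 2) and of 10 mural and fibroblast genes 4 fell (Rgs5, Vtn, Dcn and Abcc9). The whole endothelial list had 20 and 14 UMIs in erythroid cells and the mural list 17 and 15. Abcc9, a channel subunit of pericytes, had none, against 1491 and 1458 in the other cells. Outside the lists, Shisa9, Slco1c1, Igfbp7, Itga1 and Aspm were lower, each with 0 or 1 UMI a library. With the erythroid cells under 1000 genes alone, 11 of the lower genes named here no longer passed, and Cenpf, Rgs5, Shisa9 and Igfbp7 did.

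Markers of neurons gave no call against the other cells as a whole. None of 20 neuronal genes passed, and their median was -0.02. Against the microglia class all 20 were higher, with a median of 2.75, where 21.9% of the 7304 genes tested were higher and 24.3% lower, 46.3% in all. That class left out cells with 4 or more of the 8 excitatory neuron markers, and the erythroid cells had no such limit. A higher neuronal list against the microglia class was therefore in part built in. Together they gave 1.5 and 1.89% of the remaining UMIs in erythroid cells against 2.02 and 2.07% in the other cells and 0.304 and 0.364% in the microglia class. Stmn1, a tubulin regulator of young neurons, had 747 and 1007 UMIs in erythroid cells and was present in 60.9 and 55.0% of them at equal depth, against 27.7 and 28.4% of the microglia class. In erythroid cells under 1000 genes the share was 1.14 and 1.19%, and 5 neuronal genes were higher, 7 lower and 8 did not pass, where 3.89% of all genes tested were higher and 6.66% lower. The part of this RNA in the calls was not tested.

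Immune markers rested on few cells. Of 12 microglia genes 1 rose. C1qb had 38 UMIs in 3 cells of WT replicate 6 and the platelet gene Pf4 140 UMIs in 2 cells of that library. The whole microglia list had 81 and 272 UMIs in erythroid cells, 6 and 1 of its 12 genes being at 0, and the platelet list 13 and 169. Of 11 platelet genes 6 were tested and none passed. Of 14 granulocyte, mast cell and lymphocyte genes, WT replicate 1 held no UMI of any and WT replicate 6 none of 10, and the 4 that were tested did not pass.

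Calls of RNAs that stay in the nucleus depended on the gene-rich members. Malat1 had 2243 and 3518 UMIs in erythroid cells and a log2 difference of -0.30 (adjusted p = 0.612), and none of 9 nuclear-retained RNAs passed. In the cells under 1000 genes Malat1 was lower by a log2 difference of -1.76 (adjusted p = 0.00021), and 4 of the 9 fell with a median of -1.44, where 6.66% of all genes tested were lower and their median was -1.19. The list gave 1.04 and 1.04% of remaining UMIs over all members, 0.308 and 0.291% in those under 1000 genes and 1.61 and 1.53% in the other cells. At equal depth, Malat1 was seen in 56.8 and 51.3% of erythroid cells against 75.9 and 65.9% of the microglia class and 95.8 and 94.6% of the excitatory neuron class.

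The number of ribosomal protein and mitochondrial transcripts that passed depended on the setting and the reference. Of 83 cytosolic ribosomal protein genes 4 rose (median 0.56), and of 13 genes of the mitochondrial genome 5 rose (median 0.96). Among the cells under 1000 genes, 78 and 11 rose, where 3.89% of all genes tested were higher. Rpl41 differed by 1.73 and the oxidase subunit mt-Co1 by 1.33. With DESeq2 over all members, 49 and 9 rose, where 665 of all 17794 genes tested were higher. Against the microglia class 0 ribosomal protein genes rose and 6 fell, and 5 mitochondrial genes rose. There 21.9% of all genes tested were higher and 24.3% lower. Gm42418, which overlaps ribosomal RNA sequence and may collect its reads, made up 23885 and 19886 of the remaining erythroid UMIs, so CPM values in these sums move with it.

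**Figure D4:**
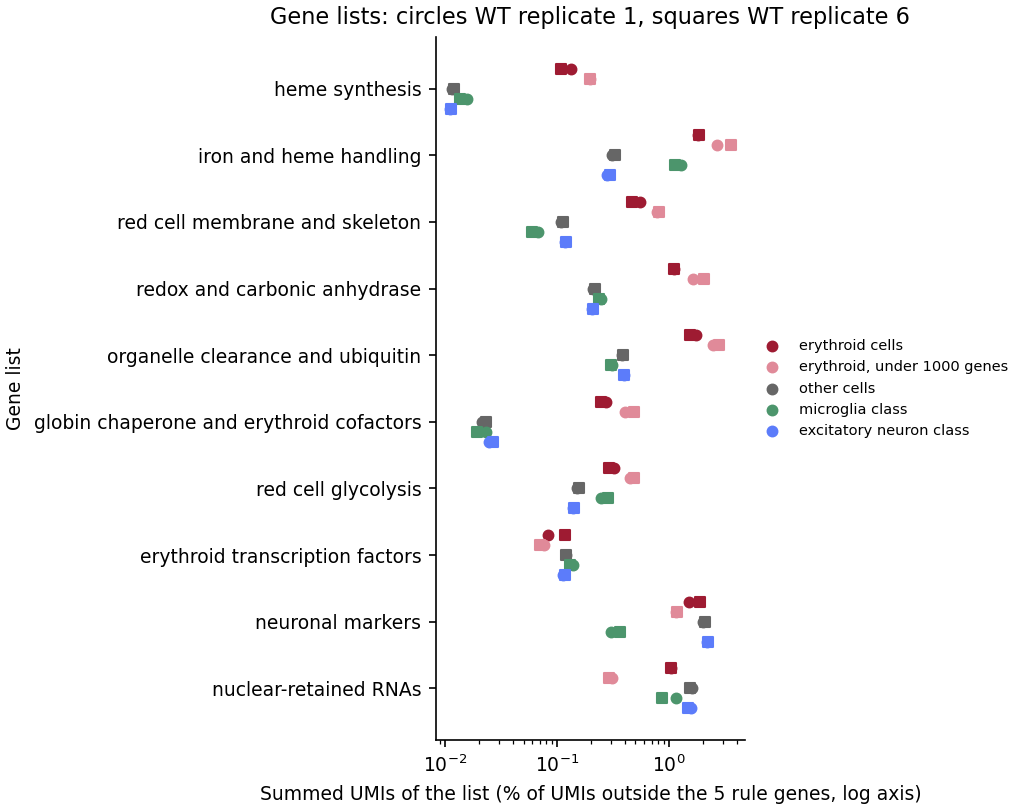
Summed UMIs of 10 gene lists as % of UMIs outside the 5 rule genes, on a log axis, in erythroid cells, in those under 1000 genes, in other cells and in 2 marker-set classes (circles WT replicate 1, squares WT replicate 6). In both libraries the erythroid cells lie above the other cells for the first 7 lists from the top and below them for erythroid transcription factors, neuronal markers and nuclear-retained RNAs.

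Leaving out the 48 gene-rich cells gave 1863 calls of 17660 genes, 687 higher (3.89%) and 1176 lower (6.66%), around a median of -1.19. Of the 260 higher calls, 251 were called again. All 59 genes named under the fixed rule and reported here kept their direction, and 48 passed again. With the microglia class as the reference in place of all other cells, 186 of the 260 higher and 20 of the 83 lower calls were made again, 48 of the 343 had the opposite sign and 54 were not tested. There the log2 differences of Slc4a1 (10.35), Bpgm (8.20) and Fech (5.97) were positive, and Lmo2 was among those that turned lower (-0.85, adjusted p = 0.0273). In bulk sums such as these, fewer cells with a transcript and less of it per cell cannot be told apart.

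Within the erythroid cells, members above their library's median globin share were set against those at or below it. The high-globin group was deeper (median 4976 and 5592 UMIs) than the low-globin group (2465.5 and 3108.5), held 85118 and 88698 UMIs outside the rule genes against 162533 and 279280, and had none of the 48 cells with 1000 or more genes. Of 2064 genes tested, 413 were higher in the high-globin group (20%) and 517 lower (25%), 45.1% in all, with a median log2 difference of -0.07. Without TMM scaling, which shifted that median by -0.75, 183 were higher and 895 lower. Without the gene-rich cells, 112 of 836 were higher (13.4%) and 9 lower (1.08%), so few lower calls were made once those cells were gone.

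The split used the globin share, on which the members had also been chosen, and the genes tested were those outside the rule. Every gene-rich cell fell in the low-globin group. The calls therefore describe this split and are no separate check of the erythroid label. All 3 heme synthesis genes tested rose, as did 8 of 9 iron and heme handling genes, 9 of 13 membrane genes, 8 of 11 redox genes and 15 of 18 organelle clearance genes, and none of these lists had a lower call. Of 3 erythroid transcription factors 2 rose and 1 fell, of 3 globin chaperones and cofactors 2 rose, and of 5 glycolysis genes 1 rose. Without TMM scaling no transcription factor rose and 1 fell, and 1 glycolysis gene rose and 1 fell. Without the gene-rich cells the 5 lists named first had 2 of 2, 7 of 8, 6 of 7, 6 of 10 and 12 of 16 higher, and neither of 2 transcription factors passed.

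Gpx1 had 1023 and 1306 UMIs in the high-globin groups and 229 and 557 in the low-globin groups. The log2 difference was 3.50 ± 0.30 (adjusted p = 0.000204), and 1.96 without the gene-rich cells (adjusted p = 2.17e-12). Blvrb had 310 and 315 against 68 and 160, a difference of 3.37 (1.83 without them). Bpgm, Car2 and Mkrn1 differed by 3.20, 3.06 and 2.85, and by 1.46, 1.35 and 1.34 without the gene-rich cells. Slc25a37, by contrast, came down from 2.68 to 0.88.

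Outside the lists, the genes that led were Rec114, known from meiotic recombination, with 45 and 23 UMIs against 10 and 10 (3.58), Yipf4 of the Golgi (3.42), Glo1, the methylglyoxal-clearing glyoxalase (3.38), and Txnrd2 (3.35). Each still rose without the gene-rich cells, by 2.37, 2.25, 2.05 and 2.23. The genes that led the lower calls had almost no UMI in the high-globin groups. Csmd1 had 0 and 1 UMIs in the high-globin groups and 54 and 110 in the low ones, March1 had 0 and 1 against 54 and 72, and Cnksr2 had none against 21 and 32. None of these was testable once the gene-rich cells were left out.

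Most nuclear-retained RNAs tested were lower in the high-globin group, and the neuronal count lay nearer the share over all genes tested. Of 6 nuclear-retained RNAs tested 4 fell, where 25% of all genes tested were lower. Malat1 had 178 and 194 UMIs in the high-globin groups against 2065 and 3324, a log2 difference of -2.0 (adjusted p = 0.000529), and -0.60 without the gene-rich cells (adjusted p = 0.0367). Of 19 neuronal genes tested, 6 fell and 13 did not pass, with a median of -0.40, beside the same 25% lower over all genes tested and their median of -0.07. Without the gene-rich cells 2 of 16 fell, where 1.08% of all genes tested were lower. The synaptic adhesion gene Nrxn3 had 24 and 13 UMIs against 302 and 1433 (-3.50, and -1.74 without the gene-rich cells). Of 80 ribosomal protein genes, 72 rose, but 2 of 80 did so without the gene-rich cells, where the median turned from 0.98 to -0.12, and without TMM scaling 6 of 80 rose.

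The balance of the beta genes also ordered the cells, and is given as a description. Cells of each library were placed in 4 equal groups by the share of Hbb-bt among their beta-globin UMIs, of which the lowest had medians of 13.7 and 12.3% and the highest 29.8 and 31.2%. Gpx1 went from 2.84 to 85.2 UMIs per 10000 remaining UMIs in WT replicate 1 and from 7.97 to 70.1 in WT replicate 6. Blvrb went from 1.26 to 25.3 and from 2.78 to 21.0, and Car2 from 0 to 17.8 and from 2.22 to 12.4. Bpgm (11.4 to 33.7 and 8.34 to 25.8) and Slc25a37 (8.21 to 24.3 and 9.82 to 19.0) moved less. Ftl1 was lower in the highest group than in the lowest, at 75 against 135 and 75.8 against 132. In WT replicate 1 it fell only at the first step, to 61.3, and then rose.

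**Figure D5:**
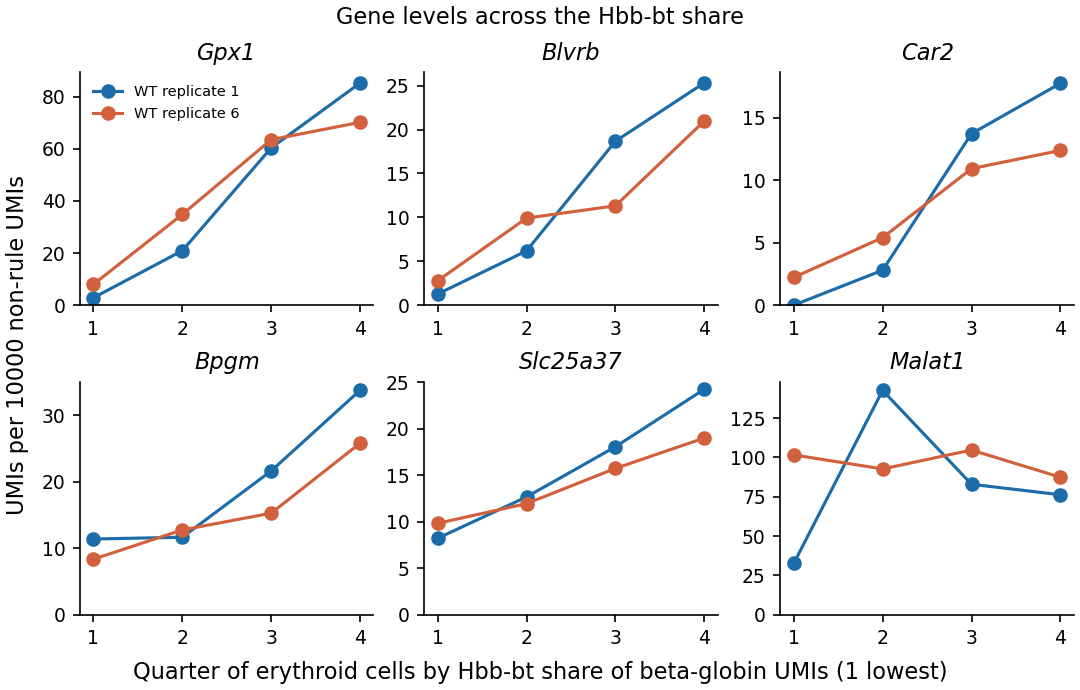
Each panel gives a gene's UMIs per 10000 UMIs outside the rule genes (vertical axis) in 4 equal groups of erythroid cells ordered by Hbb-bt share of beta-globin UMIs, 1 the lowest, with a line per library. Gpx1, Blvrb, Car2 and Slc25a37 are higher at each step in both libraries, and Malat1 has no single direction.

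Depth moved with this order: the median cell went from 2246 to 6210 UMIs in WT replicate 1 and from 3056.5 to 6690.5 in WT replicate 6. Its part in the order was not tested. The gene-rich cells did not pile up at one end in WT replicate 1 (0, 7, 4 and 7 of them from lowest to highest), and in WT replicate 6 they numbered 5, 7, 8 and 10. The alpha share of globin stayed between 36.7 and 38.2% in WT replicate 1 and between 33.6 and 35.4% in WT replicate 6.

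Genes that went up with the Hbb-bt share tended to be found in the same cells. Car2 had a UMI in 53.5% of the 101 cells with a Gpx1 UMI and in 8.79% of the 91 without one in WT replicate 1, and in 49.1% of 161 against 2.53% of 79 in WT replicate 6. Cells with Gpx1 were deeper outside the rule genes, with medians of 907 against 661 UMIs and 781 against 571. Slc4a1 was found in 33.7 and 4.40% in WT replicate 1 and in 30.4 and 2.53% in WT replicate 6. Bpgm was less restricted, at 83.2 against 44% and 83.2 against 41.8%. Ordered by globin share instead, the share of Hbb-bt in beta globin went from 20.8 to 26.8% and from 21.8 to 26.2% between the lowest and the highest of 4 equal groups. The mitochondrial share of the UMIs outside the rule genes had medians of 6.62 and 5.96% in those groups of WT replicate 1 and of 6.46 and 6.23% in WT replicate 6.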

How the data were processed

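Papain-dissociated dorsal telencephalon of wild-type embryos at embryonic day 16.5 was profiled in 2 libraries with 10x Genomics single-cell chemistry (3′ v3.1). The authors deposited whole-number UMI counts per gene and barcode, made with Cell Ranger 7.0.0 on mm10 per the submitters' processing notes; whether intronic reads were counted is not given in the sources used here. The UMI and mitochondrial limits are those the study states for its nuclei, applied here to cells.

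The members, the gene lists and the tests were chosen with earlier results of these data known. Counts were summed per library over erythroid cells and over all other passing cells, the 5 rule genes were taken out, and the sums were compared with edgeR 4.0.16 in R 4.3.3 (quasi-likelihood test, TMM scaling, filterByExpr, Benjamini-Hochberg adjusted p under 0.05). The same test compared erythroid cells above their library's median globin share with the rest. Differences are log2 values, with SE from the fit, and CPM were computed over the remaining UMIs. The code was tested on simulated data with known changes.

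From each list, up to 4 called genes with the largest log2 difference and at least 50 UMIs in one class in both libraries were to be named, with the 10 highest and 5 lowest outside the lists and, between globin groups, the 6 largest in each direction with at least 20 UMIs. Other list members were named to account for the lists, after their values were seen. Some genes are counted in their lists and not reported here. Doublets were scored with Scrublet in scanpy 1.11.5, at 0.8% of cells per 1000 barcodes, and were kept except in an alternative. Classes of other cells needed 4 of 8 markers of their own class and under 4 of each other class. Both sums of a library come from the same cells' suspension, so the library pairs them, and their deviations from the group means correlated at r = 0.066 (erythroid against other) and 0.082 (globin groups). Alternatives were DESeq2 1.42.0, no scaling, no filter, a replicate block, other thresholds, doublets left out and other reference cells; using only erythroid cells under 1000 genes was added after the data were seen. Depth was 74930397 and 68964234 UMIs. Promoters came from RefSeq on GRCm38.p6, transcripts from GENCODE M39; 77.3% of the genes called higher in erythroid cells matched a promoter, too few for a count of motifs over them.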

Additional observations from a re-analysis of the deposited data

Results flagged for a closer look

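Barcodes outside the UMI and mitochondrial limits, which the comparisons did not use, in part met the globin and Alas2 criteria too. They were met by 39 of 5997 such barcodes in WT replicate 1 (0.650%) and by 33 of 4837 in WT replicate 6 (0.682%). Both shares were above the limit that a count of 0 allows, which says only that such barcodes were present. Of the barcodes, 38 and 31 fell under 1500 UMIs. Their median globin shares were 45.4 and 51.9%, and their median depths were 1256 and 1067 UMIs. No group of samples was large enough to look for a library that stood apart.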

How the results depend on the processing

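Erythroid against other cells gave 343 calls. The count was 1044 without TMM scaling, 226 without the filter, 570 with the replicate block, 800 with DESeq2, 1605 with at least 50% globin, 1863 with erythroid cells under 1000 genes and 3379 with the microglia class as reference. The cause of these changes was not tested. Between the globin groups, 930 calls became 519 with DESeq2, 243 with at least 50% globin and 121 under 1000 genes, with fewer genes tested in the last 2, and 990 with the replicate block, under which all 59 and 12 named genes kept their calls. Against the microglia class Lmo2 (-0.85) and Creg1 (-0.047) turned negative, and the other named genes kept their sign under every setting in which they were tested. The mean share of erythroid cells was 3.19% with no Alas2 requirement, 2.19% with at least 2 Alas2 UMIs and 1.86% of all barcodes, and ranged from 2.36 to 2.92% with 1 library left out, while the median globin share ranged from 77.3 to 83.1%. With 1 library left out, 1 sum per class remained and no test was possible, and the log2 difference of every named gene kept its direction in each library. Depth limits genes of low count: 247651 and 367978 erythroid UMIs outside the rule genes mean that 1 UMI decides genes such as Shisa9 and Igfbp7.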

Other observations

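Expression of Gpx1, Blvrb and Car2 was concentrated in part of the erythroid cells. The 25% of cells with the most Gpx1 held 85.9 and 78.7% of its erythroid UMIs, and the corresponding shares were 80.4 and 80.6% for Blvrb and 94.5 and 93.5% for Car2. The highest cell had 103 and 58 Gpx1 UMIs, 21 and 17 Blvrb UMIs, and 23 and 20 Car2 UMIs. Cells were ranked by each gene's own count, so a high share is in part built in for genes seen in few cells. Car2 had a UMI in 62 and 81 erythroid cells. The share that depth and low counts alone would give was not tested.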
